A study of Mus musculus with 13 samples.

Results

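Breakfast skipping was compared with the control group in epithelial cells of the mouse jejunum, gene by gene. Of the 13 libraries in the series, 5 enter this comparison by their labelled feeding pattern, 2 of breakfast skipping (BSF) and 3 of control (con). Another 3 libraries carry the label BSF_C, for which no feeding window is given. They enter no comparison here, but they share in the filter, the scaling and the estimate of spread. Lowest and highest below refer to the groups compared, without BSF_C. Mice of the BSF group had food from ZT16 to ZT24 for 2 weeks, where ZT is zeitgeber time, counted in hours from lights on. For con the labels give only the word control, with no feeding window. Strain, age, sex and the hour at which tissue was taken are not given in the sources used here. In all groups a length of jejunum was digested to single cells, and cells with the epithelial surface protein EpCAM but without the leukocyte proteins CD45, CD11b, CD3 and B220 were sorted, after which messenger RNA was sequenced. The labels call the libraries biological replicates without saying whether each came from its own animal or cage. A p-value here thus reflects how far these libraries spread, which may be technical in part or in whole. Beyond counting error, the common coefficient of variation within groups was 4.87%. Of 21868 genes in the table, 14300 had enough counts to be tested.

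The jejunal epithelium is a single layer of cells that stem cells at the base of the crypts renew without pause. Most of its cells are absorptive enterocytes, which digest sugars and peptides at the brush border, pack dietary fat into chylomicrons and oxidise foreign compounds, while Paneth, goblet, enteroendocrine and tuft cells secrete defensins, mucus, hormones and cytokines. The time of feeding is known to set the phase of the clock in this tissue, and enterocytes are known to take up microbial and interferon signals and to present antigen on MHC class II.

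The con libraries were shallower than the BSF libraries and stood apart from them. They held 4851239 to 5202146 counts, against 7127769 to 8589351 in BSF, and their levels correlated across genes with a Spearman's rho of 0.99 to 0.992 among themselves, 0.995 between the BSF libraries and 0.914 to 0.922 between the groups. Mitochondrially encoded genes took 10.9% to 12.1% of counts in con and 9.21% to 9.87% in BSF. The labels name no batch, and one made up of the con libraries could not be separated from the feeding pattern: the 2 cannot be told apart. The quasi-likelihood test of edgeR, adjusted by Benjamini and Hochberg, called 10040 genes between BSF and con at an adjusted p under 0.05, which is 70.2% of those tested, 38.3% higher and 31.9% lower in BSF. At least 2-fold changes made up 19.7% of genes upward and 9.01% downward, and in 75.7% of genes the BSF and con libraries did not overlap. Every count of genes below is to be read against these shares. With libraries scaled to their totals alone, 64.4% of the calls were higher in BSF, against 54.5% in the test reported here, and all genes together had a median log2 fold change of 0.29 in place of 0.11. The difference also moved with transcript composition, with a median of 0.47 among the genes lowest in GC content (1 of 5 equal parts). It was -0.13 in the part next to the highest and 0.13 in the highest. For this reason the list results are set beside a comparison that uses no con library, BSF against the mean of lunch skipping (LSF, 3 libraries, food from ZT12 to ZT24 with a break from ZT16 to ZT20) and dinner skipping (DSF, 2 libraries, food from ZT12 to ZT20), both also kept for 2 weeks. That comparison called 3055 genes (21.4%), 9.87% higher and 11.5% lower in BSF, with a median of 0.00, and at least 2-fold changes made up 2.46% upward and 2.54% downward. Its share of higher calls was 46.2%, and 60.9% with totals alone. It also moved with GC content, from a median of 0.10 in the lowest part to -0.06 in the highest. Some list medians below are of that size. The comparisons share the BSF libraries, so their values are only given side by side. A call against LSF and DSF below is against their mean and need not hold against each. In some lists the BSF sum lay between those of LSF and DSF. Levels are CPM, counts scaled to a common library size by TMM, and adjusted p-values come from the same test throughout. Fold changes are log2 values ± an approximate standard error, the log2 value divided by the square root of the test's F statistic. For large changes with few counts in a group, such as Cyp3a11, Cebpb, Scand1 and Iqcn below, this error is too small.

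Markers of the sort were present in both groups. Epcam was at 211, 185 and 183 CPM in the con libraries and 340.4 and 329 in the BSF libraries, and Vil1, which bundles the actin of microvilli, at 399.9, 397 and 423 CPM in con and 788 and 809 in BSF. Cdh1, the adhesion protein E-cadherin, was lower in BSF, at 2014, 1895 and 2152 against 758 and 742 CPM. Of the leukocyte proteins that the sort removes, CD45 is encoded by Ptprc, which had 2 counts in the con libraries together and stood at 12.8 and 14.8 CPM in BSF. In bulk RNA, fewer cells of a type and less RNA per cell cannot be told apart, which holds for every list of cell markers below.

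Genes that package dietary fat stood higher in BSF than in con. Apoa1, the main protein of high-density lipoprotein, was at 881, 906 and 1062 CPM in the con libraries and 6751 and 6720 in the BSF libraries, with no overlap (2.83 ± 0.05, adjusted p = 1.77e-44). Apob, the scaffold of the chylomicron, was at 679.5, 757 and 630.0 CPM in con and 2727 and 2837 in BSF (2.01 ± 0.05, adjusted p = 1.47e-37), and Apoc2, the cofactor of lipoprotein lipase, rose by 3.24 ± 0.13. Apoc2 overlaps the gene Gm44805 on the same strand, and reads may be shared between them. Mttp, which loads lipid onto Apob, rose only by 0.21 ± 0.05 (adjusted p = 1.92e-04). Of 17 genes for chylomicron proteins and their assembly, 14 rose and 2 fell, with a median of 1.10 against 0.11 over all genes. Of 16 genes for fatty acid uptake and triglyceride synthesis, 14 rose and 1 fell (median 1.12). Among them Fabp2, an intestinal fatty acid carrier, went from 17.3, 19.8 and 16.4 to 145 and 156 CPM (3.08 ± 0.10), and Cd36, a fatty acid receptor of the brush border, from 1.86, 1.87 and 2.3 to 21.9 and 24.5 CPM (3.53 ± 0.23). Dgat2, which makes triglyceride, rose by 1.88 ± 0.08 and Mogat2, which re-esterifies absorbed monoglyceride, by 1.14 ± 0.07. Apoa1 averaged 9111 CPM in LSF and 5392 in DSF, so that BSF lay between them (-0.06 ± 0.05 against their mean, adjusted p = 0.417). Apoa4, another apolipoprotein of chylomicrons, was higher than that mean (0.28 ± 0.04, adjusted p = 2.55e-06), with averages of 14224 CPM in LSF and 9381 in DSF against 14045 and 14012 in the BSF libraries. Against LSF and DSF the medians were -0.07 for the chylomicron list and -0.05 for the uptake list, with 2 and 2 members higher and 6 and 4 lower in BSF, beside 9.87% and 11.5% of all genes. Sterol absorption and efflux genes were called lower in 5 of 8 and higher in 0 of them. Abca1, which exports cholesterol, was at 1.86, 2.08 and 2.76 CPM in con, 6.86 and 6.13 in BSF and 10.0 to 26.7 in the LSF and DSF libraries, above con (1.54 ± 0.28) and below LSF and DSF (-1.34 ± 0.17, adjusted p = 1.21e-08).

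Genes that make sterols and fatty acids went the other way. Fads2 and Fads1, the desaturases of polyunsaturated fatty acids, both fell, Fads2 from 622, 582 and 709 CPM in con to 255 and 253 in BSF (-1.33 ± 0.07, adjusted p = 2.06e-24), and Sqle, which epoxidises squalene, fell by 1.12. Of 25 genes of cholesterol synthesis and SREBP2 targets, 15 fell and 3 rose (median -0.51). With totals alone 6 rose, and with trends of GC content and length removed 1 rose. Of 13 genes of fatty acid synthesis, 9 fell and 2 rose. Srebf1, the transcription factor known to drive fatty acid synthesis, was one of those that rose, from 86.1, 78.8 and 96.7 to 182 and 189 CPM (1.09 ± 0.07). Against LSF and DSF, 4 cholesterol genes were higher and 0 lower. In the same direction as the sterol genes, Cpt1a, which admits fatty acids to mitochondria, fell from 684, 696 and 766 to 225 and 214 CPM (-1.71 ± 0.06), although 18 of 31 genes of fatty acid oxidation and PPARA targets rose and 6 fell. That list went the other way against the mean of LSF and DSF, 0 higher and 10 lower, while fatty acid synthesis had 3 higher and 1 lower. The oxidation list summed to 3025 and 2995 CPM in BSF, 2938 and 2844 in DSF and 3819, 3815 and 3856 in LSF. For it BSF lay above DSF and below LSF.

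**Figure D1:**
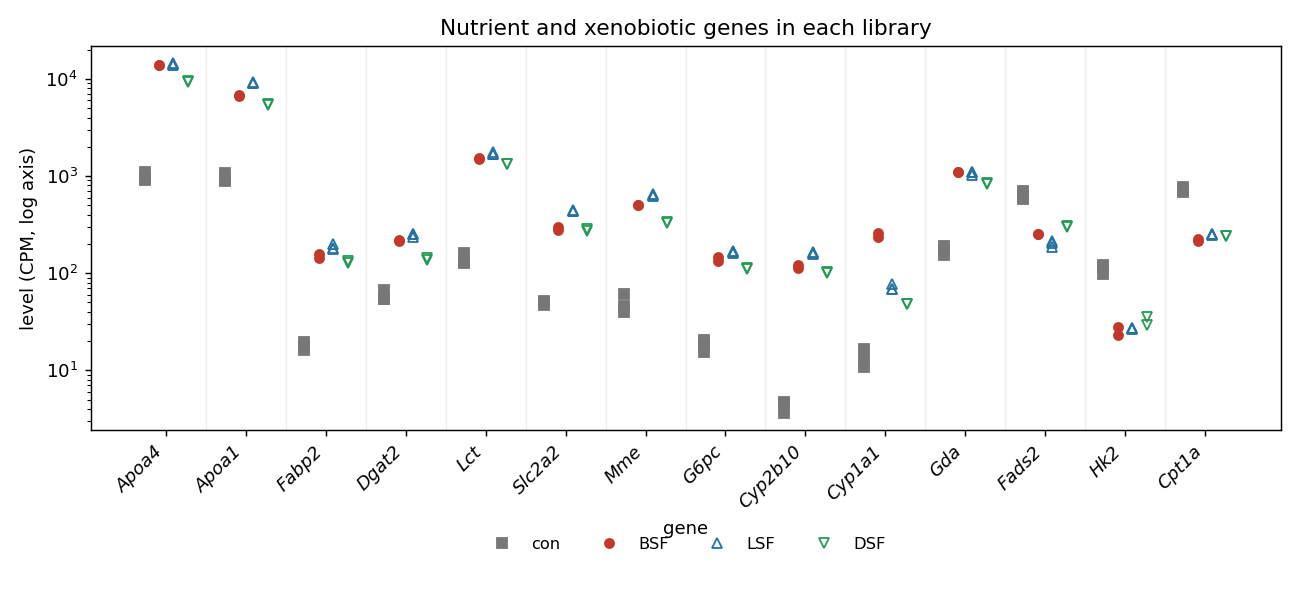
Levels of 14 genes of nutrient and xenobiotic handling, in CPM on a log axis, 1 symbol per library for con (grey squares), BSF (red circles), LSF (open blue triangles) and DSF (open green triangles). The BSF libraries lie above con for 11 genes from Apoa4 to Gda and below con for the last 3, and within or near the LSF and DSF range for most of them, with Cyp1a1 above it.

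Brush border digestion and sugar handling stood higher in BSF than in con. Lct, which splits lactose (GRCm38 chromosome 1, 128284756 to 128328318), was at 128, 129 and 160.3 CPM in the con libraries and 1533 and 1512 in the BSF libraries (3.46 ± 0.06, adjusted p = 6.30e-45), and Sis, the sucrase-isomaltase, at 131, 137 and 124 CPM in con and 418 and 453 in BSF (1.74 ± 0.06). Slc2a5, the fructose transporter, rose by 1.42 ± 0.10, while Khk, which starts the breakdown of fructose, rose by 1.26 ± 0.07. Slc5a1, the sodium-coupled glucose transporter of the brush border, rose little, from 652, 580.3 and 673 to 747 and 732 CPM (0.22 ± 0.05, adjusted p = 3.79e-04). In all, 14 of 16 sugar genes rose and 2 fell. Among 12 brush border peptidases, 11 rose and 1 fell. Mme, the peptidase neprilysin, went from 46.5, 60.5 and 39.9 to 499 and 498 CPM (3.34 ± 0.08), and Ace, angiotensin-converting enzyme, from 80.9, 86.9 and 108 to 616 and 610.3. Amino acid and peptide transporters were split, with 9 of 16 higher and 6 lower. Slc15a1, the di- and tripeptide carrier, rose by 1.89 ± 0.12 and Slc6a19, the neutral amino acid carrier, by 1.76 ± 0.07, whereas Slc1a1, a glutamate carrier, fell from 224, 214 and 224 to 84.8 and 76.6 CPM (-1.45 ± 0.08). G6pc, which frees glucose from its phosphate, rose by 2.94 ± 0.10, and Pck1, which feeds new glucose synthesis, went from 16.7, 14.3 and 15 to 54.5 and 60.2 CPM (1.90 ± 0.11). Hk2, a hexokinase, fell from 117, 98.3 and 121 to 27.7 and 23.3 CPM (-2.14 ± 0.11), while Gapdh rose by 1.25 ± 0.05 among 11 of 16 glycolysis genes that rose and 2 that fell.

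By number of calls, the same nutrient lists leaned lower in BSF than in LSF and DSF averaged. In all, 9 of 12 peptidases, 10 of 16 amino acid transporters and 8 of 16 sugar genes were called lower, and 0, 0 and 2 higher, beside 11.5% and 9.87% of all genes. The sugar list summed to 5945 and 6092 CPM in BSF, 5595 and 5577 in DSF and 7503, 7492 and 7463 in LSF. Its BSF sums thus lay above DSF and below LSF. Peptidases summed to 5211 and 5325 CPM in BSF, 5583 and 5420 in DSF and 7144, 7212 and 7153 in LSF. Amino acid transporters summed to 2881 and 2950 CPM in BSF, 3163 and 3221 in DSF and 4458, 4359 and 4318 in LSF. In both of these lists BSF lay below DSF and LSF, and closer to DSF. Pck1 was at 69.5 to 493 CPM in the LSF and DSF libraries, above both BSF libraries (-1.69 ± 0.07, adjusted p = 1.20e-26). Its LSF mean was 489 CPM and its DSF mean 70.3, so BSF lay closer to DSF than to LSF. Slc6a19 had LSF and DSF means of 543 and 311 CPM (-0.67 ± 0.06). Slc15a1 was at 67.5 to 134 CPM in these libraries (-0.76 ± 0.08). Glycolysis genes were even, 2 higher and 2 lower.

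Enzymes that act on foreign compounds were higher in BSF than in con in most listed members. Cyp3a11, an oxidase of drugs and bile acids, had 0.619, 0.208 and 0.921 CPM in the con libraries and 162 and 174 in the BSF libraries (8.16 ± 0.17, adjusted p = 6.34e-42), and it has close paralogs between which reads may be shared. Cyp2b10, a target of the receptor CAR, was at 4.75, 4.57 and 3.69 CPM in con and 121 and 113 in BSF (4.74 ± 0.13). Aldh1a1, which makes retinoic acid, rose by 3.29 ± 0.09, and the carboxylesterases Ces2a and Ces2c by 2.69 ± 0.10 and 2.56 ± 0.09. Of 25 genes of oxidative metabolism and its receptors, 21 rose and 2 fell (median 1.78), and of 37 genes for conjugation, carboxylesterases and efflux, 30 rose and 1 fell. The oxidative list summed to 3214 and 3257 CPM in BSF, 3035 and 2981 in DSF and 4853, 4961 and 4966 in LSF. For it BSF lay above DSF and below LSF. The conjugation list had, beside the mean of LSF and DSF, 18 members lower and 0 higher. Cyp1a1 (chromosome 9, 57687928 to 57703824), induced through the aryl hydrocarbon receptor, was the 1 member of the oxidative list called higher in that comparison, and 9 were lower. It stood at 10.9, 16.6 and 13.1 CPM in con, 257 and 236 in BSF, and 47.9 to 77.5 in the LSF and DSF libraries (4.18 ± 0.10 against con and 2.07 ± 0.06 against LSF and DSF, adjusted p = 1.52e-32), above all of them. Ahr, the receptor itself, was at 0.39 ± 0.12 against con and 0.15 ± 0.10 against LSF and DSF, and its call against con was lost without the third con library (0.24). Genes of the NRF2 antioxidant response did not share the rise, with 7 of 13 lower and 2 higher than in con. Gsr, which recycles glutathione, fell from 365, 343 and 374 to 119.5 and 114 CPM (-1.63 ± 0.07). In the comparison without con, 1 NRF2 gene was higher and 1 lower.

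Purine breakdown, vitamin and mineral genes followed in part. Gda, guanine deaminase, went from 189, 173 and 153 to 1091 and 1106 CPM (2.67 ± 0.06), with 11 of 15 purine and nucleoside genes higher and 2 lower. Fth1, the ferritin heavy chain, rose by 1.65 ± 0.05, while Slc40a1, the iron exporter ferroportin, fell from 63.2, 54.3 and 55.7 to 27.9 and 30.6 CPM (-0.98 ± 0.11). Isx, which represses vitamin A uptake, fell by 1.09, and Rbp2, the retinol carrier of enterocytes, rose by 1.73 ± 0.08. Vdr, the vitamin D receptor, was at 1211, 1203 and 1359 CPM in con and 755 and 757 in BSF (-0.73 ± 0.05). Against LSF and DSF, Fth1 was lower (-0.36 ± 0.05) and Gda higher (0.22 ± 0.05), and the other 4 were not called. Of the purine list 1 was higher and 3 lower.

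Among secretory cells, Paneth cell genes had the highest share of rises. Lyz1, the Paneth cell lysozyme, was at 297, 267 and 309 CPM in the con libraries and 1402 and 1378 in the BSF libraries (2.26 ± 0.06, adjusted p = 6.31e-39), Itln1, a lectin that binds microbial sugars, at 11.8, 12.7 and 22.6 CPM in con and 137 and 142 in BSF, and Mptx2, a pentraxin, at 21.7, 24.3 and 23.5 CPM in con and 109 and 105 in BSF. All 3 were without overlap. Of 13 tested Paneth cell genes of 17 listed, 12 rose and 1 fell, and against LSF and DSF 5 were higher and 0 lower (Lyz1 0.26 ± 0.05, Itln1 0.32 ± 0.07). The list summed to 1913 and 1885 CPM in BSF and 1974, 2018 and 1979 in BSF_C, so the high sum was not particular to BSF. Goblet cell genes were mixed, with 6 of 14 higher and 4 lower. Zg16, a mucus lectin, rose by 1.22 ± 0.06, Muc2, the gel-forming mucin, by 0.23 ± 0.06, and Fcgbp, a mucus-bound protein, fell from 7133, 6910 and 8112 to 4542 and 4365 CPM (-0.73 ± 0.05). In the comparison without con, goblet genes had 2 higher and 2 lower. Enteroendocrine genes rose in 8 of 17 and fell in 1 against con, with 3 higher and 0 lower against LSF and DSF. Sst, somatostatin, rose by 2.15 ± 0.23 and Cck, cholecystokinin, by 1.15 ± 0.20, while Gip, the incretin of K cells, stood at 5.99, 4.16 and 3.46 CPM in con and 3.9 and 6.35 in BSF and was not called. Tuft cell genes rose in 6 of 10 and fell in 2 against con, with 4 higher and 0 lower against LSF and DSF. Their summed level was lower in BSF, 318 to 320 CPM against 485 to 507 in con, most of it Cd24a, a surface protein that other epithelial cells also carry, which fell from 407, 400.5 and 415 to 215 and 218 CPM (-0.91 ± 0.06). Dclk1, a tuft cell kinase, went from 5.16, 2.91 and 6.45 to 18.4 and 22.1 CPM (2.08 ± 0.20) and was also above LSF and DSF (0.63 ± 0.14), a call lost without the second BSF library (0.49).

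Stem cell genes, intestinal transcription factors and junction genes stood lower in BSF than in con. Olfm4, a marker of crypt base stem cells, was at 2885, 2853 and 2706 CPM in the con libraries and 1833 and 1744 in the BSF libraries (-0.65 ± 0.05, adjusted p = 2.21e-17), and Lgr5, the R-spondin receptor of stem cells, at 29.7, 29.1 and 28.3 CPM in con and 18.4 and 19.4 in BSF (-0.62 ± 0.13). Axin2 and Rnf43, both targets and brakes of Wnt signalling, fell by 1.13 and 1.33. Of 21 stem cell genes and Wnt targets, 15 fell and 1 rose, that 1 being Ascl2, a stem cell transcription factor, which rose from 2.89, 6.45 and 7.14 to 20.5 and 26.3 CPM. With totals alone 3 rose. Beside LSF and DSF the list leaned the other way, with 6 higher and 1 lower, and Olfm4 at 0.26 ± 0.04 (adjusted p = 1.27e-05). The summed level of the list was 2986 to 3141 CPM in BSF, 2966 to 2988 in DSF and 2362 to 2387 in LSF, so that BSF stood above LSF and level with DSF. Proliferation genes were split against con (7 higher and 13 lower of 36, or 12 higher with totals alone), and 12 were higher and 0 lower against LSF and DSF. Mki67, a protein of dividing cells, stood at 297, 363 and 268 CPM in con and 335 and 320.1 in BSF, not called, and at 209 to 291 in LSF and DSF (0.43 ± 0.06, adjusted p = 6.72e-07). Top2a, the topoisomerase of mitosis, was higher in both comparisons (1.68 ± 0.10 and 0.54 ± 0.08).

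Of 18 transcription factors of intestinal identity, 12 fell and 3 rose against con, or 5 rose with totals alone. In the comparison without con, 1 was higher and 3 lower. Hnf4a, a regulator of enterocyte genes, went from 3308, 3174 and 3696 to 1568 and 1596 CPM (-1.10 ± 0.05, adjusted p = 4.86e-25), Cdx2, which sets intestinal fate, fell by 0.34, and Hnf4g, the paralog of Hnf4a, rose from 128, 144 and 105 to 246 and 249 CPM (0.97 ± 0.07). Claudin and tight junction genes fell in 12 of 18 and rose in 2. Cldn2, the pore-forming claudin of crypts, was at 1049, 936 and 1157 CPM in con and 294 and 262 in BSF (-1.91 ± 0.07). Microvillus genes rose in 12 of 18 and fell in 5, with Espn, which bundles actin, at 22.5, 24.5 and 22.6 CPM in con and 142 and 135 in BSF (2.58 ± 0.09). The microvillus list, set against LSF and DSF, had 0 higher and 8 lower. Of the tight junction genes 1 was called lower and 0 higher against LSF and DSF, and Cldn2 was at 0.09 ± 0.06 (adjusted p = 0.297).

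**Figure D2:**
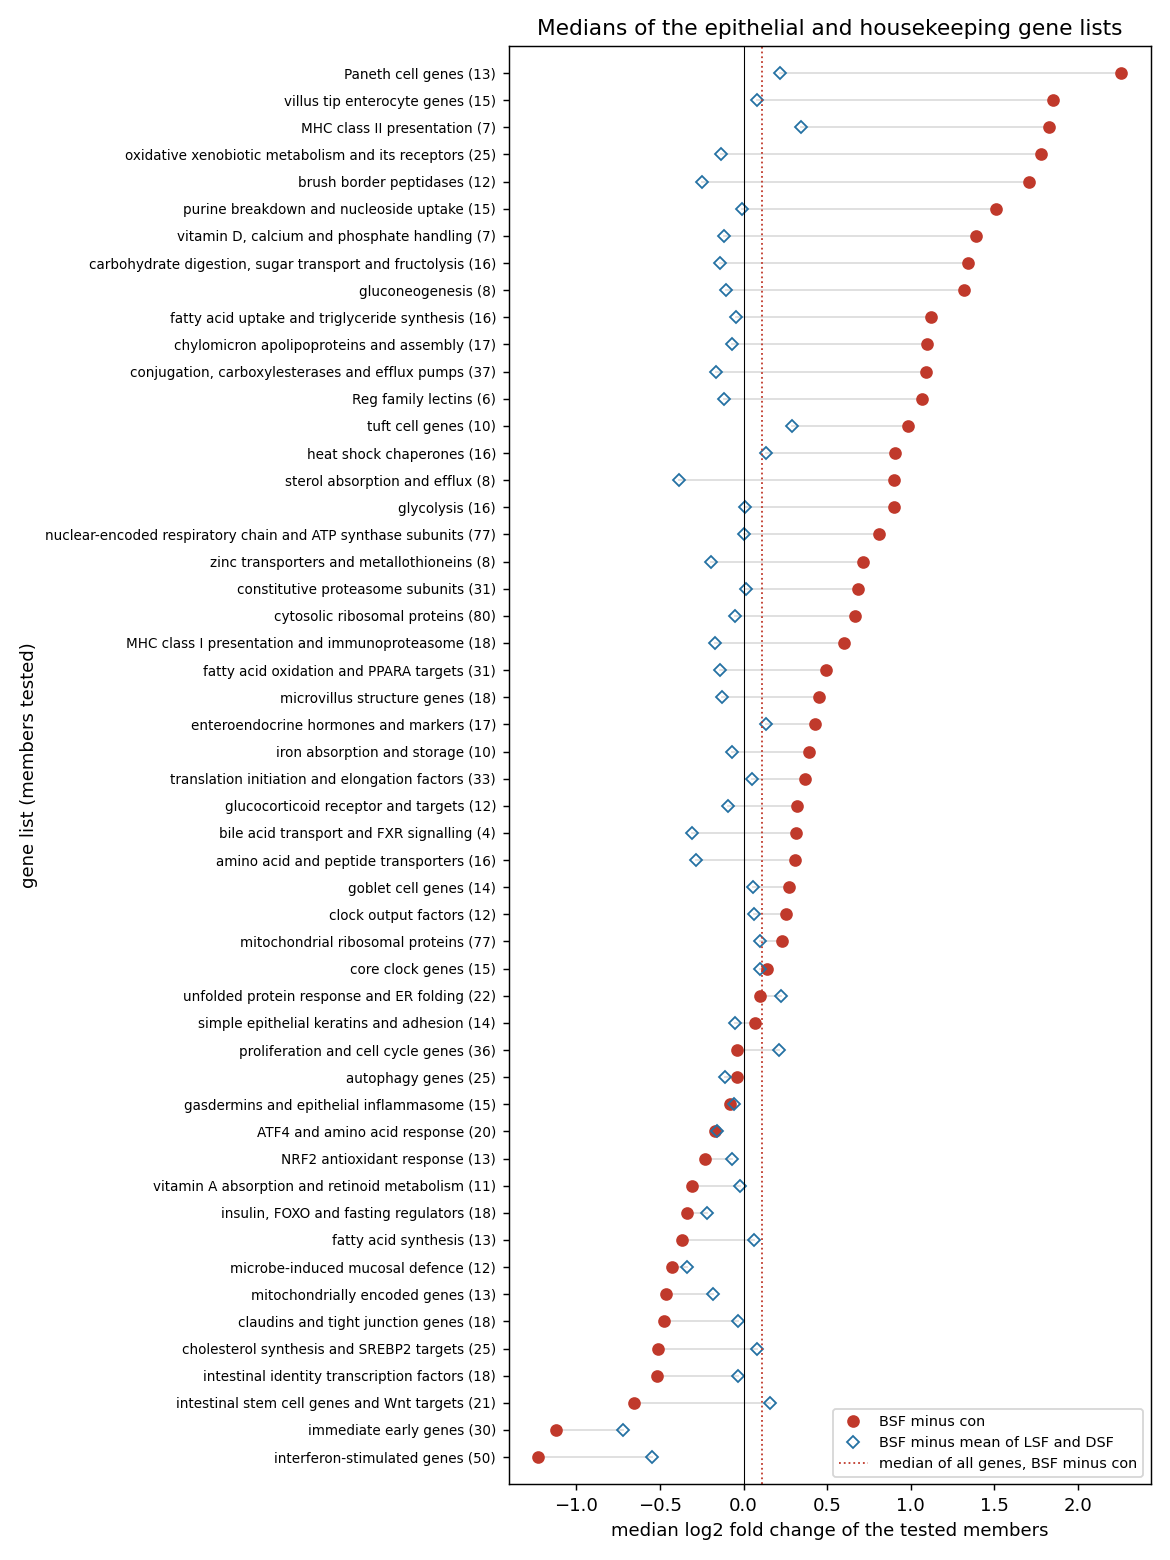
Median log2 fold change of the tested members of each gene list, for BSF minus con (red dots) and for BSF minus the mean of LSF and DSF (open blue diamonds), with the number of members tested in parentheses. The lists are the epithelial ones and those of heat shock, immediate early and mitochondrially encoded genes, which the title calls housekeeping. Red dots run from -1.23 for interferon-stimulated genes to 2.26 for Paneth cell genes, while the diamonds stay between -0.72 for immediate early genes and 0.35 for MHC class II genes. The comparisons share the BSF libraries.

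Interferon-stimulated genes were lower in BSF than in con and also lower than in LSF and DSF. These genes are known to be induced by interferons and to block the growth of viruses. Oas2, a sensor of double-stranded RNA (chromosome 5, 120730333 to 120749853), was at 133, 137 and 159 CPM in the con libraries, 6.59 and 7.8 in the BSF libraries and 16.4 to 21.9 in the LSF and DSF libraries (-4.29 ± 0.13 and -1.39 ± 0.15, adjusted p = 4.24e-34 and 3.89e-10). Irf7, the transcription factor that amplifies the response, was at 466, 462 and 523 CPM in con, 119 and 114 in BSF and 221 to 241 in LSF and DSF (-2.06 ± 0.07 and -0.98 ± 0.06). Isg15, a ubiquitin-like modifier, was at 57, 68 and 73.9 CPM in con, 25.6 and 21.5 in BSF and 36.5 to 50.9 in LSF and DSF (-1.50 ± 0.11 and -0.88 ± 0.10). Oas genes are close relatives between which reads may be shared. In each of the 3 genes both BSF libraries lay below every library of con, LSF and DSF. Of 50 tested members 40 fell and 4 rose against con (median -1.23), and 40 fell and 0 rose against LSF and DSF (median -0.55). The summed level of the list was 8434 to 9238 CPM in con, 3253 to 3265 in BSF and 4250 to 4451 in LSF and DSF. In the BSF_C libraries it was 3254, 3217 and 3253 CPM, so the low sum was not particular to BSF.

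Promoters of the interferon list are shown because its members moved together. The sequences are the 250 bases before the start of the gene in the RefSeq promoter table for GRCm38.p6, on the strand of the gene, with the core of the interferon-stimulated response element, GAAANNGAAA, in capitals (overlapping matches are joined).
Isg15 (chr4:156200819-156201068, minus strand): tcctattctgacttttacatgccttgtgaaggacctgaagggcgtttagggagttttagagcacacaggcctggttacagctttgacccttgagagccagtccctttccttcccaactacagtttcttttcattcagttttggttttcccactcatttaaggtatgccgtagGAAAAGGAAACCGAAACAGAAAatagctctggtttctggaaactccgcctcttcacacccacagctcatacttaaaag
Oas3 (chr5:120777660-120777909, minus strand): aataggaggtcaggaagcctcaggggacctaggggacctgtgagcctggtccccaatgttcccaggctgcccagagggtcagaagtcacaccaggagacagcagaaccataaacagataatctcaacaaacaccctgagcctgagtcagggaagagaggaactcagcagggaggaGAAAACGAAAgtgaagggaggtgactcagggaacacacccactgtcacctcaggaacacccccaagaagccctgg
The letters occurred 3 times in the Isg15 window and 1 time in the Oas3 window, and Oas3, a synthase of the same family as Oas2, was at 153, 149.9 and 176 CPM in con, 20.6 and 20.4 in BSF and 44 to 51.9 in LSF and DSF. Searched on both strands, they were found in 2.98% of 32851 such windows, and in 16 of the 40 tested interferon-stimulated genes that have one. Of these 16 genes 13 fell and 0 rose against con (median -1.43). Of the other 24, 18 fell and 3 rose (median -1.17), so that genes with and without the letters both stood lower. Over all 11072 tested genes with a window, 362 held the letters, of which 106 fell and 149 rose. A match is a description of the sequence, not a binding site.

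MHC class II genes ran opposite to the interferon genes. All 7 tested of 9 listed rose against con. H2-Aa, a chain of the antigen-presenting molecule, was at 3.3, 2.7 and 3.92 CPM in con and 24.9 and 28.4 in BSF (3.02 ± 0.19), and its partner H2-Ab1 at 7.64, 8.11 and 5.76 CPM in con and 42.5 and 44 in BSF (2.58 ± 0.16). Cd74, the invariant chain, was at 42.3, 33.1 and 37.5 CPM in con, 132 and 136 in BSF, 64.9 on average in LSF and 143 in DSF, so that BSF stood above LSF but not above DSF. Ciita, the transcription factor that switches these genes on, was at 18.4, 13.9 and 18.2 CPM in con, 26.4 and 27.3 in BSF and 14.5 to 17.6 in LSF and DSF (0.68 ± 0.14 and 0.74 ± 0.12, adjusted p = 2.41e-06), with BSF above all of them. In the list, 4 rose and 0 fell against LSF and DSF. Its sum was 280.1 and 289.6 CPM in BSF and 310.4, 287.6 and 291.3 in BSF_C, so the high sum was not particular to BSF. The H2-Aa promoter is shown for the conserved element of class II genes that resembles a cyclic AMP response element, TGACGTCA, in capitals.
H2-Aa (chr17:34287824-34288073, minus strand, GRCm38.p6): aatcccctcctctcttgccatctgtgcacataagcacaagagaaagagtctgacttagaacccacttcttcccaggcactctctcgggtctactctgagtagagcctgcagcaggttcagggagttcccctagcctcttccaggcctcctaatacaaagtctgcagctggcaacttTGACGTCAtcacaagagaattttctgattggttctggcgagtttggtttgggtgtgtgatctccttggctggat
These letters occurred in 1.55% of all windows and in 1 of the 4 tested class II genes that have one. Leukocytes also carry class II, and their markers moved in the same direction against con. Of 12 leukocyte genes 11 rose and 0 fell, and their summed level was 23.9 to 37.8 CPM in con, 143 to 149 in BSF and 183 to 215 in LSF and DSF. Macrophage and dendritic cell genes were split, with 6 of 12 tested higher and 6 lower against con. They summed to 288 to 316 CPM in con and 157 to 168 in BSF, and B and plasma cell genes to 3.22 to 6.03 and 5.79 to 5.91. The part of these cells in the class II result was not tested. In the comparison with LSF and DSF the leukocyte genes went the other way, 7 lower and 0 higher.

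Other genes of defence were split. Duox2, the peroxide-making oxidase of the apical membrane, was at 281, 249.7 and 300.1 CPM in the con libraries, 11.4 and 14.6 in the BSF libraries and 9.17 to 44.2 in LSF and DSF (-4.39 ± 0.11, adjusted p = 6.31e-39), and its partner Duoxa2 fell by 2.78. Nos2, the inducible nitric oxide synthase, fell from 4.96, 4.78 and 6.22 to 0.942 and 1.34 CPM (-2.18 ± 0.37). Pigr, which carries IgA across the epithelium, rose from 3100, 3177 and 3009 to 4441 and 4416 CPM (0.52 ± 0.04). Of 18 MHC class I and immunoproteasome genes 13 rose and 4 fell against con, and 2 higher and 9 lower was the count against LSF and DSF. B2m, the light chain of class I, rose by 1.03 ± 0.06, or 0.10 and no longer called with trends of GC content and length removed, and Nlrc5, its transcriptional activator, fell to 9.02 and 8.69 CPM (-1.49 ± 0.17). Gsdmd, which forms the pores of pyroptosis, rose by 1.72 ± 0.08, while Nlrp6, an epithelial inflammasome sensor, fell from 1319, 1358 and 1548 to 657 and 637 CPM (-1.12 ± 0.06). Reg1, a lectin-like secreted protein with close relatives, rose by 2.59 ± 0.08.

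Immediate early genes, which cells switch on within a short time of many stimuli, were lower in BSF than in con, LSF and DSF. Egr1 was at 1121, 1100 and 1163 CPM in the con libraries, 99.2 and 113 in the BSF libraries and 223 to 294 in LSF and DSF (-3.41 ± 0.07 and -1.26 ± 0.06, adjusted p = 1.62e-23). Fosb was at 646, 626 and 674 CPM in con, 54.1 and 61.5 in BSF and 160.1 to 228 in LSF and DSF (-3.48 ± 0.07 and -1.72 ± 0.07), and Fos and Jun, partners in AP-1, fell by 2.38 and 2.01 against con and by 1.10 and 0.70 against LSF and DSF. Atf3, a stress-induced repressor, went from 346, 312 and 319 to 39.7 and 38.1 CPM, with 85.6 to 94.6 in LSF and DSF. In these 5 genes both BSF libraries lay below every library of con, LSF and DSF. Of 30 genes 22 fell and 5 rose against con, and 26 fell and 0 rose against LSF and DSF. Their summed level was 7513 to 8429 CPM in con, 3044 to 3098 in BSF and 4545 to 5077 in LSF and DSF. In the BSF_C libraries it was 3155, 3156 and 3106 CPM, so the low sum was not particular to BSF. Jund, a member that is expressed without stimulation, rose against con, from 84.9, 178 and 126 to 604 and 556 CPM (2.16 ± 0.10), and fell by 0.35 against LSF and DSF, a call that a DESeq2 Wald test did not make (adjusted p = 0.287). Its GC content is 67.1%. Chaperones stood higher in BSF. Hspa8, the constitutive HSP70, was at 971, 947 and 1067 CPM in con and 2216 and 2198 in BSF (1.15 ± 0.05), and Hsp90aa1, an HSP90, at 67.5, 78.8 and 59.7 CPM in con, 349.8 and 346 in BSF and 213 to 287 in LSF and DSF (2.34 ± 0.07 and 0.54 ± 0.06). Hspa1a, the inducible HSP70, fell from 19.2, 26 and 28.1 to 5.38 and 5.57 CPM, and its near-identical copy Hspa1b from 39, 47 and 44.2 to 27.3 and 22.5, between which reads may be shared. Of 16 heat shock genes 11 rose and 4 fell against con, and 7 rose and 1 fell against LSF and DSF. They summed to 5449 and 5399 CPM in BSF and 5601, 5593 and 5438 in BSF_C. Genes of protein folding in the endoplasmic reticulum were even against con (10 higher and 9 lower of 22) and higher against LSF and DSF (13 and 0). They summed to 4851 and 4809 CPM in BSF and 4887, 4886 and 4859 in BSF_C. Neither high sum was particular to BSF. Hspa5, the chaperone BiP, was at 709.8, 717 and 664 CPM in con, 1160 and 1139 in BSF and 837 to 886 in LSF and DSF (0.72 ± 0.05 and 0.41 ± 0.05).

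**Figure D3:**
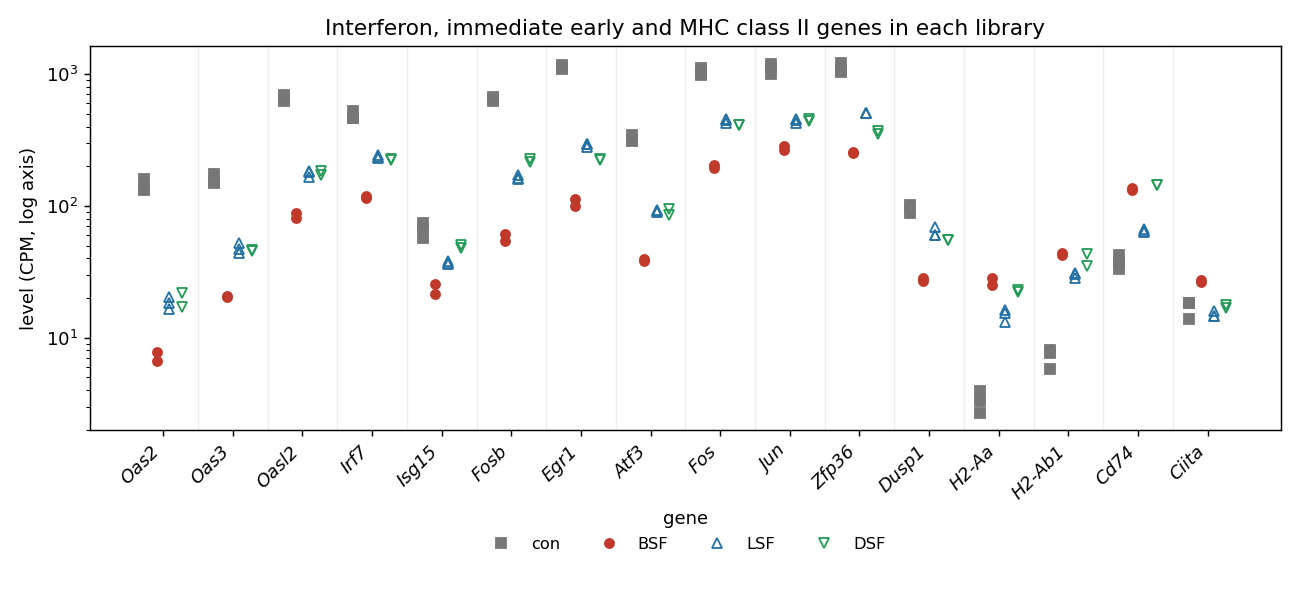
Levels of 7 immediate early and 5 interferon-stimulated genes and 4 MHC class II genes, in CPM on a log axis, 1 symbol per library for con (grey squares), BSF (red circles), LSF (open blue triangles) and DSF (open green triangles). Of the groups shown, BSF is the lowest and con the highest for the 12 genes from Oas2 to Dusp1. BSF lies above con for the 4 class II genes. The BSF_C libraries are not shown.

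Clock genes differed in both directions. Cry1, a repressor of the clock, was at 6.61, 9.98 and 8.06 CPM in the con libraries, 47.8 and 49.1 in the BSF libraries and 24.6 to 32.5 in LSF and DSF (2.56 ± 0.14 and 0.72 ± 0.09, adjusted p = 2.06e-08). The BSF libraries lay above those of con, LSF and DSF. Per1, which feeding and stress signals induce, was at 21.7, 23.1 and 21.4 CPM in con, 12.9 and 14 in BSF and 18.6 to 31.5 in LSF and DSF, lowest in BSF (-0.71 ± 0.14 and -0.81 ± 0.12, adjusted p = 1.26e-06). Nr1d1 was at 54 to 102 CPM in LSF and DSF against 47.4 and 45 in BSF (-0.68 ± 0.08), and it overlaps Thra on the opposite strand. Clock, the partner of Arntl, rose by 0.57 ± 0.08 against con, or 0.12 and no longer called with those trends removed. Over the list, 8 of 15 core clock genes rose and 4 fell against con, and 5 rose and 4 fell against LSF and DSF. Their summed level was 638 to 678 CPM in con, 912 to 945 in BSF and 676 to 832 in LSF and DSF. In the BSF_C libraries it was 941, 921 and 918 CPM, within the BSF range. Among clock outputs, Tef, a transcription factor, was at 38, 30.8 and 36.2 CPM in con, 71.7 and 65.2 in BSF, 84.9 on average in LSF and 36.5 in DSF. Without the hour of sampling, a shift in phase and a change in level cannot be told apart.

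Of 80 cytosolic ribosomal protein genes 65 rose and 3 fell against con, with Rps2 going from 633, 829 and 750.0 to 2185 and 1925 CPM, and 1 rose and 2 fell against LSF and DSF. Many ribosomal protein genes have processed copies with which they may share reads. Nuclear-encoded subunits of the respiratory chain and ATP synthase rose in 59 and fell in 9 of 77, and only 35 rose with trends of GC content and length removed, and 1 rose and 2 fell against LSF and DSF. Of 13 genes encoded in the mitochondrial genome, 9 fell and 3 rose against con, and 10 fell and 0 rose against LSF and DSF. Their summed level was 122082 to 130354 CPM in con, 88397 to 94489 in BSF and 96546 to 102335 in LSF and DSF, lowest in BSF among these groups. In the BSF_C libraries it was 90516, 95891 and 92195 CPM, overlapping BSF. Mitochondrial ribosome genes rose in 27 and fell in 12 of 77 against con. With totals alone 43 rose, and with trends of GC content and length removed 22 fell. Against LSF and DSF 5 were higher and 0 lower. Of 31 proteasome subunits 21 rose and 4 fell against con, and 0 rose and 1 fell against LSF and DSF.

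The largest rises started from near the detection limit in con. Among genes at 20 CPM or more in the higher group, with at least 3 counts in the lower group and in no list of other tissues, the 4 largest rises were Cep85l, Cyp3a11, Scand1 (7.49 ± 0.19) and Cebpb (6.93 ± 0.16). Cep85l, with 3 counts in con together, was at 0.619, 0 and 0 CPM in con and 71.9 and 76.7 in BSF, and it overlaps, on the opposite strand, the heart gene Pln, which was at 0.206, 0 and 0 CPM in con and 69.9 and 75.4 in BSF. Without strand, reads from such pairs cannot be told apart, which also holds for Acaa1b, B2m, Ciita, Dclk1, Duoxa2, Gapdh, Hspa1a, Irf7, Itgae, Lgr5, Mttp, Nap1l5, Slc1a1, Srebf1 and Vil1. Cebpb, a transcription factor of inflammation and metabolism, was at 0.619, 1.46 and 0.921 CPM in con and 126 and 122 in BSF and Scand1, a small nuclear protein, at 0.413, 0.416 and 1.38 CPM in con and 146 and 118 in BSF. In LSF and DSF Cebpb was at 137 to 146 CPM and Scand1 at 136 to 151. Their GC contents are 67.2% and 68.4%, and both overlap a gene on the opposite strand. Spp1, the matrix protein osteopontin, stood at 34.9 and 15 CPM in BSF with 3 counts in con together, and lower than in LSF and DSF (-1.70 ± 0.22). Acaa1b, a peroxisomal thiolase, went from 0.206, 0.624 and 1.15 to 53.7 and 50.1 CPM (6.29 ± 0.23). Among the largest falls by the same limits, Iqcn went from 84.7, 85.2 and 76.9 to 0.538 and 0.446 CPM (-7.35 ± 0.25), B3galt5, a galactosyltransferase, to 14.5 and 15.3 CPM (-4.13 ± 0.11), and Ly6a, the stem cell antigen Sca-1, which interferons induce, from 93.7, 101 and 106 to 4.71 and 4.79, below the 13.3 to 21.1 CPM of LSF and DSF as well (-1.86 ± 0.17). Elovl4, which makes very long chain fatty acids of skin, and Cdsn, a protein of cornified skin, fell from 32, 30.6 and 26.5 to 0.538 and 0.334 and from 53.3, 59.7 and 54.1 to 2.15 and 1.56 CPM. Both moved with the skin genes below, and the part of skin RNA in them was not tested.

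By the same limits, the largest rise against LSF and DSF was that of Cyp1a1. Aqp8, a water channel, was at 0.206, 0.832 and 0.23 CPM in con, 27.9 and 29.3 in BSF and 7.12 to 13.6 in LSF and DSF (1.53 ± 0.14). Snhg11, Nap1l5 and Pnmal2 rose by 1.51 ± 0.10, 1.56 ± 0.12 and 1.52 ± 0.14, and Ndn by 1.57 ± 0.15, with 22.9 and 21.9 CPM in BSF and no count in con. These 4 genes are known as abundant in neurons, and they moved with the neuron and brain glia list, of which 17 of 22 tested members were higher and 0 lower against LSF and DSF. Their part in these rises was not tested. The largest falls were Ccn2, a matrix protein induced by stretch and growth factors, at 1.48 and 1.89 CPM in BSF against 4.88 to 46.1 in LSF and DSF (-3.79 ± 0.54), and Tcap, a protein of the muscle sarcomere (-2.35 ± 0.13). Both moved with the heart and fibroblast genes described next, whose part in these falls was not tested. The skeletal muscle list went the other way in its sum, at 102 CPM in BSF and 30.3 to 62.2 in LSF and DSF. That sum was 9.08 to 11.5 CPM in con, and of 6 tested members 1 was higher and 1 lower against LSF and DSF. Cyp2c55, an oxidase of drugs and fatty acids, was at 0.206, 1.87 and 1.15 CPM in con, 21.5 and 24.2 in BSF and 65.7 to 92.9 in LSF and DSF (4.40 ± 0.25 and -1.76 ± 0.10). Pde6a, a phosphodiesterase known from the retina, and Cfap77, a protein of cilia, fell by 1.76 and 2.19.

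Transcripts of other tissues also differed between BSF and con. Of 270 genes in 19 lists of other tissues 184 passed the filter on low counts, many of them only through the group where they are high, so the counts below describe those genes and not the size of a change. Leaving the other-tissue genes out gave 70.0% called among 14116 genes, 38.0% higher and 32.0% lower. The 27 tested of 28 skin keratinocyte genes were called lower, and 17 of the list had no count in BSF. Their summed level was 1110 to 1295 CPM in con, 6.91 to 7 in BSF and 7.39 to 12.6 in LSF and DSF. Krt14, a keratin of basal skin cells chosen here after its values were seen, had 816 counts in con and none in BSF, at least 319-fold lower. Krt10, a keratin of upper skin layers, was at 38.4, 48.9 and 46.5 CPM in con and 2.29 and 2.23 in BSF (-4.29 ± 0.21). Heart muscle genes rose in 14 of 17 against con and fell in 12 against LSF and DSF, and 8 of 19 listed had no count in con. Their summed level was 121 to 134 CPM in con, 350 to 381 in BSF and 696 to 796 in LSF and DSF, and most of the con sum was Ldb3, a protein of the muscle Z-disc, at 122, 118 and 112 CPM in con and 100.1 and 114 in BSF and not called. Actc1, cardiac actin, had no count in con and 16.6 and 15.2 CPM in BSF, at least 73.7-fold higher.

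Melanocyte, fibroblast and lymphocyte genes also rose. Dct, a melanin enzyme, went from 1.03, 0.416 and 0.23 to 38.8 and 38.2 CPM (6.03 ± 0.30). Fibroblast and matrix genes rose in 14 of 16 against con and fell in 14 of 16 against LSF and DSF, with sums of 12.4 to 16.6 CPM in con, 105 to 111 in BSF and 210 to 278 in LSF and DSF. Intraepithelial T lymphocyte genes rose in 13 of 15 and fell in 1. Gzma, a granzyme of killer lymphocytes, had 2 counts in con together and stood at 40.6 and 50.4 CPM in BSF. The ratio was 322, and its exact 95% interval ran from 88.7 to 2661. Itgae, the integrin that anchors these cells, fell from 90.0, 84.4 and 83.2 to 44 and 49.7 CPM. Brain genes rose in 17 of 22 against con, with Snap25, a protein of synaptic release, at 1.24, 1.87 and 0.691 CPM in con, 17.8 and 16.3 in BSF and 3.83 to 9.66 in LSF and DSF. Some defining genes of other tissues were at or near 0 in both groups. Adipoq of fat had no count, Alb of liver 2 counts in con and none in BSF, and Acta2 of smooth muscle 2 in con and 4 in BSF, which are at or near the limit of 3 counts that a count of 0 allows. The part of other tissues in the epithelial results was not tested.

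**Figure D4:**
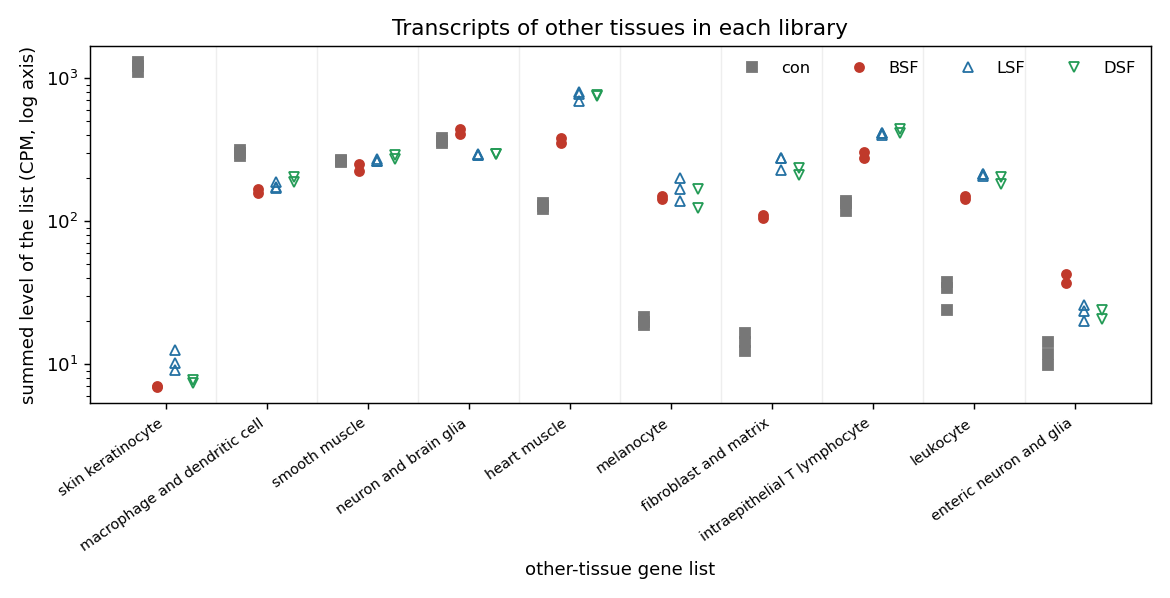
Summed level of the listed genes of 10 other tissues or cell types, in CPM on a log axis, 1 symbol per library for con (grey squares), BSF (red circles), LSF (open blue triangles) and DSF (open green triangles). Skin genes are above 1000 CPM in con and below 13 in the others, while heart, fibroblast, melanocyte and leukocyte sums are lowest in con and the BSF libraries lie between con and LSF for heart and fibroblast genes.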

How the data were processed

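Poly(A) RNA of sorted jejunal epithelial cells was measured in 13 libraries. The authors deposited raw read counts per gene symbol. Per the submitters' processing notes, the tools were STAR 2.7.2e, cutadapt 2.9, FastQC 0.11.8 and DESeq2 1.32.0, and the build GRCm38 (mm10), and the annotation, strand setting and treatment of multiply mapped reads are not given in the sources used here. The labels' protocols name no step that marks strand. Of the gene symbols, 21756 (99.5%) matched GENCODE M21, which was used for overlapping genes, GC content and length.

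Genes were filtered by group with filterByExpr and tested with the quasi-likelihood test of edgeR 4.0.16 in R 4.3.3, with TMM scaling, all 13 libraries and the group as the only term, two-sided, with 8 residual degrees of freedom and a Benjamini-Hochberg adjusted p under 0.05. DSF columns carry numbers other than the labelled replicates and were used without numbers. Where a group had no count, 3 counts in all of it stood in for 0, and ratios have exact 95% intervals that cover counting error only. Named genes are key genes of 71 lists. Up to 3 further members, by smallest p, come from each epithelial, heat shock, immediate early or mitochondrially encoded list. Also named are the 8 largest rises and falls (6 against LSF and DSF) at 20 CPM or more in no list of other tissues. From the lists of other tissues come the 3 highest in either group. The members and lists were chosen with earlier results of these data known. Alternatives were other scalings, tests, filters and sample sets, the replicate block and each library left out. Trends of GC content and length removed, and genes with overlapping exons left out, were added after seeing the data. Some genes that the rule takes are not reported here.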

Additional observations from a re-analysis of the deposited data

How the results depend on the processing

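In place of 10040 genes called against con, the other scalings, tests, filters and sample sets called 8730 to 10481, each among the genes it tested, and the calls gene by gene were not compared. The next 2 settings fell outside that range. A log2 fold change of at least 1 left 4112 (2824 higher, 1288 lower), and leaving out genes with exons overlapping another gene left 6147 (3377 higher, 2770 lower) of 8819 tested. Against LSF and DSF the same settings gave 715 (352 higher, 363 lower) and 1937 (881 higher, 1056 lower) in place of 3055, and a DESeq2 Wald test called 916 higher in place of 1411. Leaving out 1 library gave 8982 to 9841 calls against con (4789 to 5341 higher, 4193 to 4500 lower) and 1467 to 2748 against LSF and DSF (640 to 1280 higher, 824 to 1492 lower). The lowest of the latter, 1467 and 1478, came without the first and the second BSF library, where the lone library is assumed to vary like the other groups. No pairing of the libraries by their numbers was detected, though a weak one could be missed. Correlations of same-numbered libraries ran from -0.07 to 0.03 over 15 pairs, none over 0.1, and a fit with the replicate block called 9729 genes against con (5240 higher, 4489 lower). No paired analysis was possible for the comparison with LSF and DSF because the DSF columns carry no labelled numbers. The con libraries are the shallowest, and genes at a few counts there have imprecise folds.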
